A study of Mus musculus with 8 samples.

Results

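The interleukin-6 (IL-6) family was followed through 5 of its genes: the secreted cytokines Il6, Lif and Osm, the IL-6 receptor Il6ra, and Il6st, which encodes the shared signalling receptor gp130. A probe belonged to the set if its gene name on the array was one of these symbols, which gave 10 probes of 56605. A probe entered the tests if it was well above background, by the scanner software's own flag, on at least 2 of the 8 arrays. All 5 genes of the 20076 tested passed that filter, through 9 of the 10 probes. Il6 and Lif passed through arrays with LPS only, so their presence among the tested genes already implied a difference from the arrays without LPS.

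Cytokines of this family signal through receptor complexes that include gp130, which activates JAK kinases and the transcription factor STAT3. Macrophages that sense bacterial lipopolysaccharide (LPS) through Toll-like receptor 4 are a main source of IL-6, a driver of fever and of the acute phase response of the liver. Leukaemia inhibitory factor (Lif) acts through its receptor paired with gp130, and oncostatin M (Osm), a product of activated myeloid cells, through a receptor of the same kind.

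RAW264.7 is a mouse macrophage line, grown here in RPMI1640 with 5% fetal bovine serum. Cultures without melatonin and cultures given 1 mM melatonin for 1 h were each left without LPS or given it (Escherichia coli O55:B5, 100 ng/ml) for 1, 3 or 5 h. Each of these 8 conditions had 1 culture and 1 array (1 colour, Cy3), so p-values cover no more than the scatter among these arrays, which may be technical. LPS time could not be told apart from hours in culture or from the column of the slide, nor melatonin from the row of the slide. For the melatonin arm, the treatment entry of 3 of the 4 samples gave LPS times 1 step later than the sample titles, the 5 h sample had no such entry, and the titles were followed. Over 1887 genes that moved with LPS, each melatonin array had its highest correlation with the melatonin-free array of its titled time (r from 0.719 to 0.888, across genes, which are not independent). The 75th percentile of the signal ran from 659.14 to 846.11 over the arrays, and the share of probes well above background from 46.96% to 52.99%. Of 10 macrophage markers, 9 were well above background on all 8 arrays and Mertk on none. No epithelial marker of 4 was well above background on any array, nor were 4 of 5 fibroblast markers, while the T cell markers Cd3e and Cd4 and the endothelial marker Pecam1 were so on all 8. Col1a2 of fibroblasts and Pecam1 and Kdr of endothelium had fitted changes of 1.08, 0.57 and 1.89 on the log2 scale at 5 h of LPS (limma adjusted p = 0.0374, 0.0281 and 0.0354). No Kdr probe was well above background on more than 2 arrays, and no Col1a2 probe on more than 6. The changes of Kdr and Col1a2 thus take in dim arrays, and the part of these genes in the results was not tested.

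Levels are the log2 processed signal minus the log2 75th percentile of the array, so 0 is the 75th percentile. They compare arrays for a probe, never a probe with another. The probes that stood for the members are given below by 30 bases of each 60-mer, 5′ to 3′, because every level rests on them. Capitals mark ATTTA, the pentamer of AU-rich elements known from unstable cytokine messages, searched on the printed strand.
Il6: ctgttacctagccagatggtttcttggaat
Lif: gggcctttATTTAttATTTAaaacttcaaa
Osm: gggacatgactaATTTAttgttttattttt
Il6ra: aggaccaagtgcagtaacggtagcccaaac
Il6st: atcttctcacagtaagcagtctagttatgg
The Lif probe held ATTTA at 2 places and the Osm probe at 1, and the full 60-mers of the other 3 held none. Of all 56605 probes, 8.08% held it. The files place these probes, on mouse build mm9, at chr5:30346367-30346426 (Il6, plus strand), chr11:4172032-4172091 (Lif, plus), chr11:4140873-4140932 (Osm, plus), chr3:89674054-89674113 (Il6ra, minus) and chr13:113296586-113296645 (Il6st, plus). They lie in the annotated transcript of each gene, at bases 945, 3529, 1750, 2475 and 4969 in that order.

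The 250 bases before the transcription start were taken from RefSeq (GRCm38.p6) for 4 of the 5 genes. They are shown for the cytokines Il6 and Lif, which went from below background to well above it. Capitals mark matches, on either strand, to 5 motifs of factors known from cytokine promoters: NF-kB (GGNNTTTCC), C/EBP (TTGCNNAA), CRE (TGACGT), AP-1 (TGANTCA) and STAT (TTCNNNGAA).
Il6 chr5:30012864-30013113, plus: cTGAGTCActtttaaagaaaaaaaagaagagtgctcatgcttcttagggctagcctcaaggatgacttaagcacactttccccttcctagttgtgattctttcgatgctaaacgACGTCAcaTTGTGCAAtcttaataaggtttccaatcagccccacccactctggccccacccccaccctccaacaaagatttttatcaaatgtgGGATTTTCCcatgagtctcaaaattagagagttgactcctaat
Lif chr11:4257318-4257567, plus: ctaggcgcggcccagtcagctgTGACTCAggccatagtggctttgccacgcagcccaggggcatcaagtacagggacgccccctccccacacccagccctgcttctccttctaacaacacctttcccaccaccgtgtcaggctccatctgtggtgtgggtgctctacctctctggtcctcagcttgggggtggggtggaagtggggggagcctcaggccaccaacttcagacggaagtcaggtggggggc
The Il6 window held the NF-kB letters at -43 to -35, C/EBP at -128 to -121, CRE at -136 to -131 and AP-1 at -249 to -243, counted from the start site, with no overlap. In the Lif window, AP-1 alone matched, at -228 to -222. The windows of Il6ra and Il6st held none of the 5. Among 32851 RefSeq promoter windows of this length, 4.93% held the NF-kB letters, 9.56% C/EBP, 6.47% CRE, 6.75% AP-1 and 7.02% STAT. A match describes letters, and binding was not measured.

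With LPS all 3 cytokine messages rose and that of the receptor Il6ra fell, while no change of Il6st with LPS was called. A gene was called, in every comparison, at a Benjamini-Hochberg adjusted p under 0.05 over the 20076 genes from limma's moderated test. Each LPS time was measured by its array in both arms, so 2 arrays were set against the 2 without LPS.

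Without melatonin, the Il6 probe read -6.95 before LPS and -2.40, 5.83 and 7.10 after 1, 3 and 5 h. With melatonin the readings were -6.55, -5.90, 1.58 and 3.89. The probe was not well above background on either array without LPS, nor on the melatonin array at 1 h, and the 3 h and 5 h arrays of both arms lay far above all of these. Against a group below background, a fold is given as a lower bound: the mean of the bright arrays over the mean of each dim array's lowest signal that was well above background, or of the probe's own signal where that was higher. At 1 h the level was measured on 1 of 2 arrays (mean -4.15 against -6.75), and the difference was not called (adjusted p = 0.334). It was called without the melatonin array at 0 h (adjusted p = 0.00657), and alternatives reached 0.814. Il6 rose by 3 h, to a mean of 3.70 and at least 302-fold (SE of the log2 change 1.05, adjusted p = 0.00197). At 5 h its mean was 5.49, a rise of at least 1040-fold (adjusted p = 0.000779). These bounds hold for each array's own lowest signal: with a common floor, the highest of these, the changes were lower, at 7.73 and 9.52 on the log2 scale, and still called.

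The step of Il6 from 1 to 3 h was 8.23 without melatonin and at least 61.6-fold with it, where the 1 h array was below background, and it was called (adjusted p = 0.0104). That call was lost on leaving out the melatonin-free array at 1 h (adjusted p = 0.0663) or at 3 h (0.0873), or the melatonin array at 1 h (0.077), and over all alternatives the adjusted p ran from 0.00105 to 0.0873. From 3 to 5 h the probe gained 1.27 without melatonin and 2.31 with it, a step that was not called (1.79 ± 1.05 SE, adjusted p = 0.474). In whole cultures, fewer cells that express a gene and less RNA per cell cannot be told apart.

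**Figure D1:**
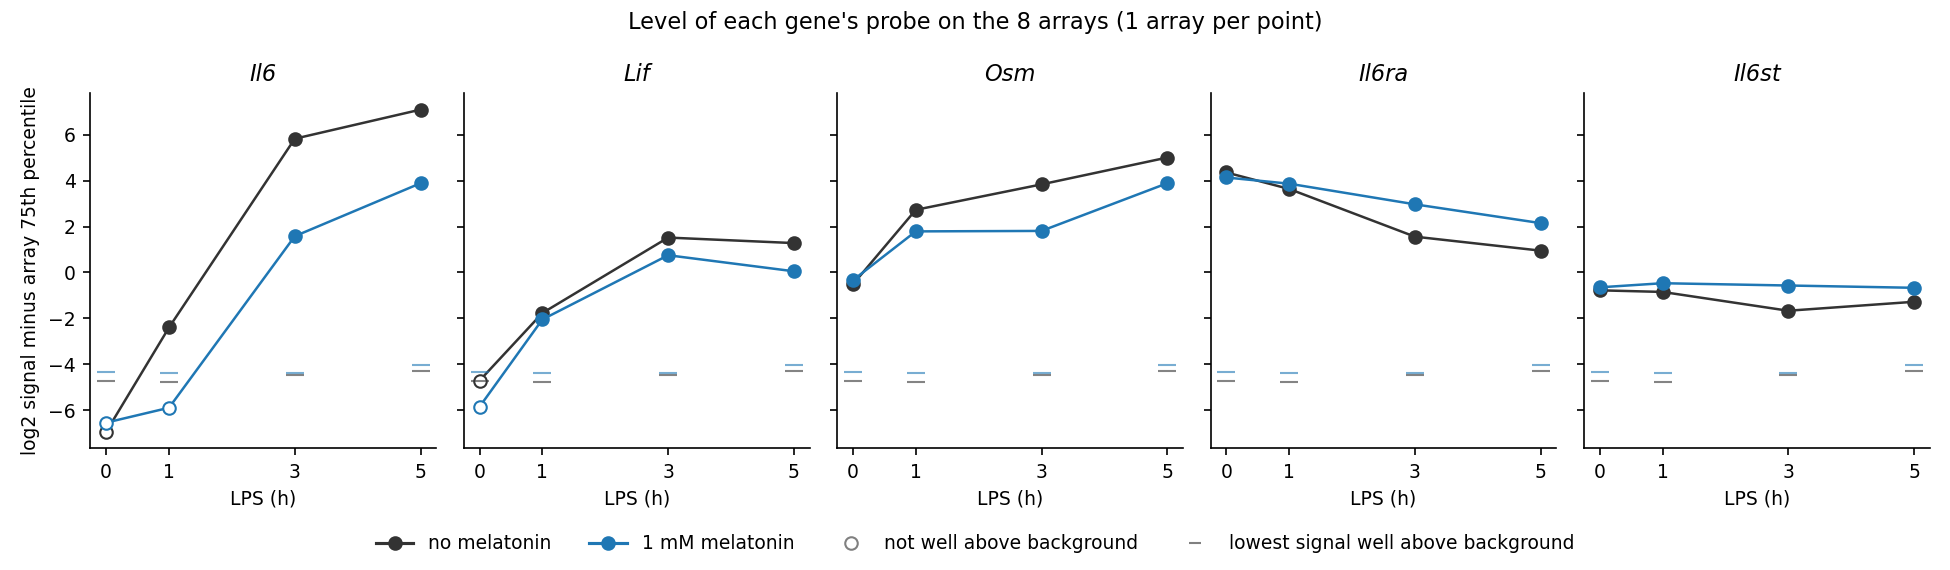
Level of each gene's probe (y axis, log2 processed signal minus the array's 75th percentile) against hours of LPS (x axis) for the arms without and with 1 mM melatonin, 1 array per point and therefore no error bars. Open points were not well above background, and dashes mark each array's lowest signal that was. Il6 climbed from -6.95 to 7.10 without melatonin and from -6.55 to 3.89 with it, Il6ra declined from 4.36 to 0.95 and from 4.14 to 2.15, and Il6st stayed between -1.67 and -0.47.

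Lif read -4.72, -1.77, 1.52 and 1.28 at 0, 1, 3 and 5 h in the arm lacking melatonin, and -5.86, -2.05, 0.75 and 0.05 with it. Both arrays without LPS were below background, all 6 with LPS were well above it, and the highest level of each arm was at 3 h. Lif rose by 1 h, at least 6.18-fold (SE of the log2 change 0.24, adjusted p = 0.00319). The increase was at least 50.9-fold at 3 h (adjusted p = 0.000157) and at least 36.8-fold at 5 h (adjusted p = 0.000128). The step from 1 to 3 h was called (3.04 ± 0.24 SE, adjusted p = 0.00304), and the step from 3 to 5 h was not (-0.47 ± 0.24 SE, adjusted p = 0.419). With dim values raised to the common floor, the 1 h change was 2.12, less than that bound, and no longer called (adjusted p = 0.107, with 0.00268 to 0.107 over all alternatives).

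Another probe of Osm was below background on both arrays without LPS, as were those of Il6 and Lif. The probe that stood for Osm was well above background on every array, including both without LPS. It read -0.52, 2.73, 3.84 and 5.01 at 0, 1, 3 and 5 h in the arm lacking melatonin, and -0.34, 1.79, 1.81 and 3.89 with it. Each LPS array lay above both arrays without LPS. The 1 h difference of 2.69 ± 0.46 (SE) was not called (adjusted p = 0.0578). It was called under quantile normalization (adjusted p = 0.0467), in the deposited table (0.0465), with every probe tested on its own (0.0443) and without the melatonin array at 0 h (0.0194), within a range of 0.0194 to 0.315 over all alternatives. Osm rose at 3 h by 3.26 ± 0.46 (SE, adjusted p = 0.00519) and at 5 h by 4.88 ± 0.46 (SE, adjusted p = 0.00103), which is 29.5-fold. Neither step between LPS times was called (0.56 ± 0.46 SE from 1 to 3 h, adjusted p = 0.448, and 1.63 ± 0.46 SE from 3 to 5 h, adjusted p = 0.223). With the melatonin-free 3 h array left out, the step from 1 to 3 h turned to -0.14.

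Osm and Lif are neighbours on chromosome 11: RefSeq (GRCm38.p6) lists 0 genes wholly between them, and the files place their probes 31.1 kb apart on mm9. Over the 8 arrays their levels correlated at r = 0.886, against 0.914 for Il6 with Lif and 0.90 for Il6 with Osm. These correlations describe arrays that share LPS times, and no test was made of them.

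Il6ra, which gives cells their binding site for IL-6, went the other way. Its probe read 4.36, 3.64, 1.56 and 0.95 at 0, 1, 3 and 5 h in the arm lacking melatonin, and 4.14, 3.87, 2.97 and 2.15 with it. Levels descended at each successive time in both arms, and all 4 arrays at 3 and 5 h lay below all 4 at 0 and 1 h. The 1 h difference was -0.49 ± 0.40 (SE, adjusted p = 0.664). Il6ra fell by 1.98 ± 0.40 at 3 h (SE, adjusted p = 0.015) and by 2.70 ± 0.40 at 5 h (SE, adjusted p = 0.00402), which is 6.49-fold, and 164 of 20076 genes had a lower fitted change at 5 h. The 3 h call was lost without the array without melatonin at 0 h (-1.40, adjusted p = 0.0739) or at 3 h (-1.47, adjusted p = 0.101), and other alternatives went down to 0.00964. The steps from 1 to 3 h (-1.49 ± 0.40 SE, adjusted p = 0.0591) and from 3 to 5 h (-0.72 ± 0.40 SE, adjusted p = 0.454) were not called. Quantile normalization and the deposited table called the former (-1.58 in both, adjusted p = 0.044, where alternatives ranged from 0.0346 to 0.308).

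Il6st, the signal transducer that all of these cytokines share, varied least. It read -0.78, -0.85, -1.67 and -1.28 without melatonin and -0.65, -0.47, -0.57 and -0.67 with it, at 0, 1, 3 and 5 h. The melatonin arm stayed between -0.67 and -0.47, while in the other arm the 3 h and 5 h arrays were the lowest of the 8. Differences with LPS were 0.05, -0.40 and -0.26 at 1, 3 and 5 h, each ± 0.23 (SE), and none was called (adjusted p = 0.948, 0.223 and 0.401). Without the melatonin array at 3 h, the 3 h difference was -0.76 and called (adjusted p = 0.0491, the lowest over alternatives that reached 0.912).

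Counted together, 1 of the 5 members was called at 1 h of LPS (Lif), where limma called 1.96% of all genes (1.67% higher and 0.284% lower). At 3 h, 3 rose and 1 fell, beside 33.7% of all genes called (18.6% higher and 15.1% lower). At 5 h, again 3 rose and 1 fell, beside 44.2% of all genes (24.9% higher and 19.4% lower). From 1 to 3 h, 2 rose, against 15.2% called overall (8.42% higher and 6.83% lower). From 3 to 5 h none of the 5 was called, and overall 0.0946% were (0.0349% higher and 0.0598% lower), with 2937 genes at an unadjusted p under 0.05. Il6 and Lif are among the rises counted here, and they entered the tests through arrays with LPS only, which favours a rise. With all 8 arrays required to be well above background, 3 members were left, of which 1 rose and 1 fell at 3 h and at 5 h. With so many genes called at 3 and 5 h, these counts alone do not set the family apart.

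Melatonin was compared over the 4 matched LPS times, 4 arrays against 4. Il6 and Lif were lower with melatonin and Il6st higher, and neither Osm nor Il6ra was called. These 3 calls among 5 members stand beside 40.6% of all genes called (15.3% higher and 25.3% lower).

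For Il6, the melatonin array was at least 3.91-fold lower at 1 h, 19.1-fold lower at 3 h (-4.25) and 9.28-fold lower at 5 h (-3.21). Without LPS both arrays were below background. At 3 and 5 h, 21 and 44 of 20076 genes had a lower difference than Il6, with no test at a single time. The melatonin array at 5 h (3.89) was still below the array without melatonin at 3 h (5.83). Averaged over the 4 times the fitted difference was -2.64 ± 0.75 (SE, limma adjusted p = 0.0362), a mean that takes in 3 arrays below background. The call was lost with no filter on dim probes (adjusted p = 0.0808), a common floor (0.0875) or no intensity trend (0.0657), and without any 1 of the 6 arrays with LPS (0.109 to 0.13), while the lowest adjusted p of an alternative was 0.00809.

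Lif differed between arms by -0.28, -0.77 and -1.23 at 1, 3 and 5 h, lower with melatonin each time, and was below background on both arrays without LPS. Its mean difference of -0.85 ± 0.17 (SE, adjusted p = 0.013) includes that dim pair. With dim values at a common floor it was -0.57 and not called (adjusted p = 0.126), and it was not called without either 3 h array (adjusted p = 0.0522 without the one lacking melatonin, 0.0518 without the other). Alternatives ranged from 0.0125 to 0.126.

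Osm differed between arms by 0.17 without LPS and by -0.94, -2.03 and -1.12 at 1, 3 and 5 h, so all 3 melatonin arrays with LPS were below their partners. At 3 h that is 4.09-fold lower. The mean of -0.98 ± 0.33 (SE) missed the threshold (adjusted p = 0.0582). It was called with the mean of both probes (adjusted p = 0.0491), or without the 0 h array of either arm (0.0146 and 0.0144), and reached 0.156 under another alternative.

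Both receptors lay higher with melatonin at every LPS time. For Il6ra the differences were -0.22 without LPS and 0.23, 1.42 and 1.2 at 1, 3 and 5 h, with a mean of 0.66 ± 0.28 (SE) that was not called (adjusted p = 0.111). With melatonin, the Il6ra level at 5 h (2.15) was above that at 3 h without it (1.56). For Il6st the differences were 0.13, 0.38, 1.10 and 0.61 at 0, 1, 3 and 5 h, and the mean of 0.56 ± 0.16 (SE) was called (adjusted p = 0.0387). That call was lost with no filter (adjusted p = 0.086), a common floor (0.0762) or no intensity trend (0.0639), and without any 1 of the 6 arrays with LPS (0.0795 to 0.109), and the lowest of an alternative was 0.0273.

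At 3 h, a melatonin difference of at least 2-fold was seen in 2 members downward (Il6 and Osm) and in 2 upward (Il6ra and Il6st), where 5.42% and 6.02% of all genes passed that size. At 5 h the members past it were Il6, Lif and Osm downward (4.82% of all genes) and Il6ra upward (5.81%). At 1 h Il6 alone passed it, downward (3.34%), by the probe that stood for it. At 1 h, 3.26% of all genes were as much higher. Without LPS no member measured on both arrays did, beside 2.14% of all genes upward and 2.61% downward.

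Whether the melatonin difference with LPS departed from that without was tested by a melatonin by LPS term, the mean difference at 1, 3 and 5 h minus that at 0 h. Limma called 0% of the 20076 genes for it, with 754 at an unadjusted p under 0.05. For Il6 the term was -4.06 ± 0.42 (SE, unadjusted p = 0.000153, adjusted p = 0.459), with both 0 h arrays below background. It was called without the melatonin array at 1 h (-4.14, adjusted p = 0.045, where other alternatives reached 0.999). The term was -1.54 for Osm, 1.17 for Il6ra and 0.57 for Il6st (adjusted p = 0.908 each) and 0.37 for Lif (adjusted p = 0.912). So a melatonin difference that depends on LPS was not shown for any of the 5 genes.

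Other probes gave a second reading of 4 genes. Their adjusted p-values, also from limma, were taken over 30417 probes, each tested on its own. The other Il6 probe (chr5:30346159-30346218) was at least 149-fold higher at 3 h and at least 508-fold at 5 h, and its melatonin differences were -4.32 at 3 h and -3.26 at 5 h. At 1 h it was below background with melatonin and at least 1.58-fold lower there, a smaller bound than that of the main probe. Over the 5 differences between arrays where both Il6 probes were measured, they departed from each other by -0.07 to 0.32. The other Osm probe (chr11:4139500-4139559) was below background without LPS and on the melatonin array at 3 h. It was at least 8.95-fold higher at 5 h of LPS. Its melatonin differences were -0.85 at 1 h and -1.25 at 5 h, and it was at least 5.21-fold lower at 3 h. For Il6ra, the probe 6.6 kb away (chr3:89680743-89680802) fell by 1.56 at 3 h and by 2.04 at 5 h (adjusted p = 0.0107 and 0.00319), and 11 of 11 differences had the sign of the main probe. Its melatonin difference at 3 h was 0.61, under 2-fold and smaller than the 1.42 of the main probe, and its mean over the 4 times was 0.32 ± 0.21 (SE, adjusted p = 0.249).

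The probes of Il6st were less alike. At chr13:113294595-113294654, the other measured probe read -2.85, -2.85, -4.19 and -3.51 without melatonin and -2.21, -2.67, -2.42 and -3.12 with it. It was lowest at 3 h without melatonin, as was the main probe, but 10 of 14 differences had the same sign. Its mean melatonin difference of 0.74 ± 0.27 (SE) was not called (adjusted p = 0.0764). A probe 20.8 kb upstream of that one, at chr13:113273739-113273798 and assigned to another transcript, was well above background on none of the 8 arrays.

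**Figure D2:**
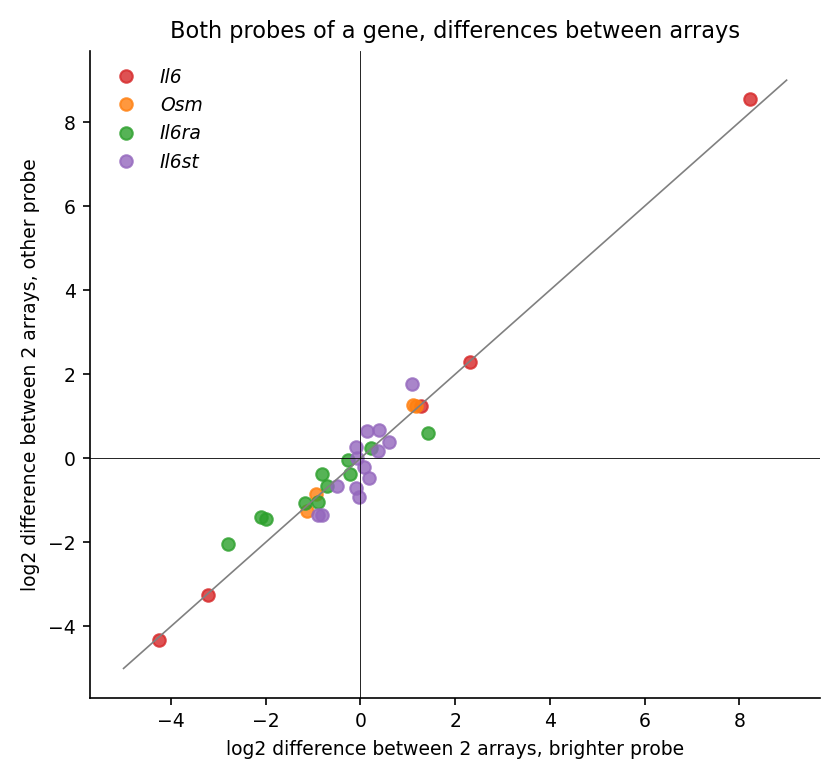
Difference between 2 arrays (log2) by the probe that stood for the gene (x axis, the one with the higher mean) and by its other measured probe (y axis), for every difference where both were measured on both arrays. The diagonal marks equal differences. The 5 points of Il6 and the 4 of Osm lie within 0.32 of it, those of Il6ra within 0.81 and those of Il6st within 0.89.

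Among 15 further ligands and receptors of the gp130 family, 7 were tested. This list and those below were chosen with earlier results of these data known, so their shares are descriptions. At 5 h of LPS 3 rose and 2 fell, where 24.9% of all genes rose and 19.4% fell, and the median change was -0.17 against 0.08 over all genes. Il27 and Ebi3, the subunits of interleukin-27, rose by 3.47 ± 0.49 (SE, adjusted p = 0.00341) and 2.08 ± 0.23 (SE, adjusted p = 0.00156), and the ciliary neurotrophic factor gene Cntf by 0.98 (adjusted p = 0.00112). The interleukin-11 receptor Il11ra1 fell by 0.46 (adjusted p = 0.047). With melatonin, Il27 was lower by 1.33 (adjusted p = 0.0291) and Ebi3 by 0.95 (adjusted p = 0.00867), and Il11ra1 was higher by 0.45 (adjusted p = 0.0206). Il27 read -1.16, -0.81, 2.46 and 3.14 at 0, 1, 3 and 5 h in the arm lacking melatonin and -1.49, -1.51, 0.18 and 1.14 with it, so every melatonin array was below its partner. The receptors for Lif and Osm, Lifr and Osmr, were well above background on at most 1 array each and were not tested. Il11, Clcf1, Ctf1 and Il31 were so on none.

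Of 10 genes of the JAK-STAT chain below gp130, 9 were tested, and 4 rose and 1 fell at 5 h (median 0.30), a share near the 44.2% of all genes called. The kinase Jak2 rose by 1.40 ± 0.13 (SE, adjusted p = 0.000997), Stat3 by 0.66 (adjusted p = 0.0256) and Jak1 by 0.30 (adjusted p = 0.0401), while the exchange factor Sos1 fell by 0.91 (adjusted p = 0.00566). Sos1 was higher with melatonin by 0.78 (adjusted p = 0.00532) and Stat3 lower by 0.53 (adjusted p = 0.0202).

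Of 9 genes listed as brakes on gp130 signalling, all tested, 5 rose and 1 fell at 5 h (median 0.53), beside 24.9% and 19.4% of all genes. The 5 include Socs2, which entered the tests through arrays with LPS only. At 5 h it was well above background on 1 array, and its rise was at least 1.36-fold. The largest rises were those of the suppressors of cytokine signalling Cish, by 7.78 ± 0.44 (SE, adjusted p = 0.000296), Socs3, by 4.88 ± 0.18 (SE, adjusted p = 0.00011), and Socs1, by 2.14 ± 0.32 (SE, adjusted p = 0.00416). Whether Cish or Socs2 acts on gp130 was not tested. Socs3, which binds gp130 and shuts off its signal, read 1.30, 5.09, 6.38 and 6.03 at 0, 1, 3 and 5 h in the arm lacking melatonin and 1.00, 4.29, 6.17 and 6.03 with it. The arms met at 5 h for Socs3, where the Il6 arrays of the arms differed by -3.21. Pias3, an inhibitor of STAT3, fell by 1.33 at 5 h (adjusted p = 0.00517) and was higher with melatonin by 1.32 (adjusted p = 0.00379). Of the 9, 3 were lower with melatonin and 1 higher, near the 40.6% of all genes called. Their median was -0.04 against -0.10 over all genes. Among the lower ones, the phosphatases Ptpn6 and Ptpn1 differed by -0.74 and -0.20 (adjusted p = 0.00677 and 0.0243).

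Of 18 genes known to be induced through STAT3, 17 were tested, and 14 rose and 2 fell at 5 h (median 2.45 against 0.08), beside 24.9% and 19.4% of all genes. The siderophore binder Lcn2 rose by 7.44 ± 0.47 (SE, adjusted p = 0.000381) and the acute phase gene Saa3 by 6.32 ± 0.66 (SE, adjusted p = 0.00139). The growth regulator Myc, below background on both arrays without LPS, rose at least 29.8-fold (adjusted p = 0.00248). The haptoglobin gene Hp fell by 2.13 (adjusted p = 0.00145) and the cyclin Ccnd1 by 1.85 (adjusted p = 0.0047). With melatonin 11 of the 17 were lower and 1 was higher, beside 25.3% and 15.3% of all genes, with a median of -0.76 against -0.10. Myc, which entered the tests through arrays with LPS only, is among the 14 and the 11. The list was chosen with earlier results of these data known, so these shares describe it and test nothing. Il1rn, the interleukin-1 receptor antagonist, was lower by 2.60 ± 0.32 (SE, adjusted p = 0.00427), Hp by 1.39 (adjusted p = 0.0038) and Bcl3 by 0.70 (adjusted p = 0.00763). Il1rn read -1.18, -0.37, 3.26 and 4.70 at 0, 1, 3 and 5 h in the arm lacking melatonin and -2.98, -2.23, -0.13 and 1.36 with it, and every melatonin array was below its partner, also without LPS. Many of these genes also answer to other LPS signals, and STAT3 activity was not measured.

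Factors that act on Il6 transcription were 13, all tested, of which 11 rose and none fell at 5 h (median 2.24), beside 24.9% and 19.4% of all genes. At 1 h 7 of them had risen, beside 1.67% of all genes (median 1.29 against -0.01). The stress factor Atf3, known as a negative regulator of Il6 and included in these counts, rose by 5.62 ± 0.39 at 5 h (SE, adjusted p = 0.000458). Nfkbiz, a nuclear cofactor that Il6 induction needs, rose by 4.96 ± 0.44 (SE, adjusted p = 0.000867) and the NF-kB subunit gene Nfkb2 by 3.12 (adjusted p = 0.00034). Nfkbiz read -1.13, 4.79, 4.88 and 4.75 at 0, 1, 3 and 5 h in the arm lacking melatonin and -0.37, 4, 3.86 and 3.68 with it. It was near its highest level in both arms by 1 h. Of the 13, 3 were lower with melatonin and 1 higher (median -0.21), where 40.6% of all genes were called. Atf3 was lower by 1.21 (adjusted p = 0.0192), Cebpd, which is also in the STAT3 list, by 0.76 (adjusted p = 0.0246) and Nfkb1 by 0.65 (adjusted p = 0.00553).

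Regulators of Il6 mRNA stability numbered 10, and 6 rose and 1 fell at 5 h (median 0.57), beside 24.9% and 19.4% of all genes. Zfp36 (tristetraprolin), which binds AU-rich elements and promotes decay, rose by 3.86 ± 0.30 (SE, adjusted p = 0.000582). Zc3h12a (Regnase-1), a nuclease that cuts the Il6 message, rose by 3.73 ± 0.14 (SE, adjusted p = 0.00011). Arid5a, which protects that message, rose by 3.17 ± 0.52 (SE, adjusted p = 0.00559). Zfp36l2, a relative of Zfp36, fell by 2.89 ± 0.23 (SE, adjusted p = 0.000629). Of the 10, 4 were lower with melatonin and 1 higher (median -0.18 against -0.10), near the 40.6% of all genes called. Genes of RNA-binding proteins were among the lower ones, Hnrnpd by 0.89, Khsrp by 0.43 and Elavl1 by 0.43 (adjusted p = 0.00335, 0.00277 and 0.0038).

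Of 5 genes for shedding of the IL-6 receptor from the cell surface, 4 were tested, and 3 rose and 1 fell at 5 h (median 0.88), beside 24.9% and 19.4% of all genes. The shedding protease Adam17 rose by 0.66 ± 0.11 (SE, adjusted p = 0.00542), and Rhbdf2 and Rhbdf1, which carry it to the surface, by 1.96 and 1.09 (adjusted p = 0.00118 and 0.00517). Adam10, a related protease, fell by 1.69 ± 0.08 (SE, adjusted p = 0.000208). With melatonin, Adam17 was lower by 0.72 (adjusted p = 0.00334) and Rhbdf2 by 0.47 (adjusted p = 0.0409), and Adam10 was higher by 0.22 (adjusted p = 0.0297).

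**Figure D3:**
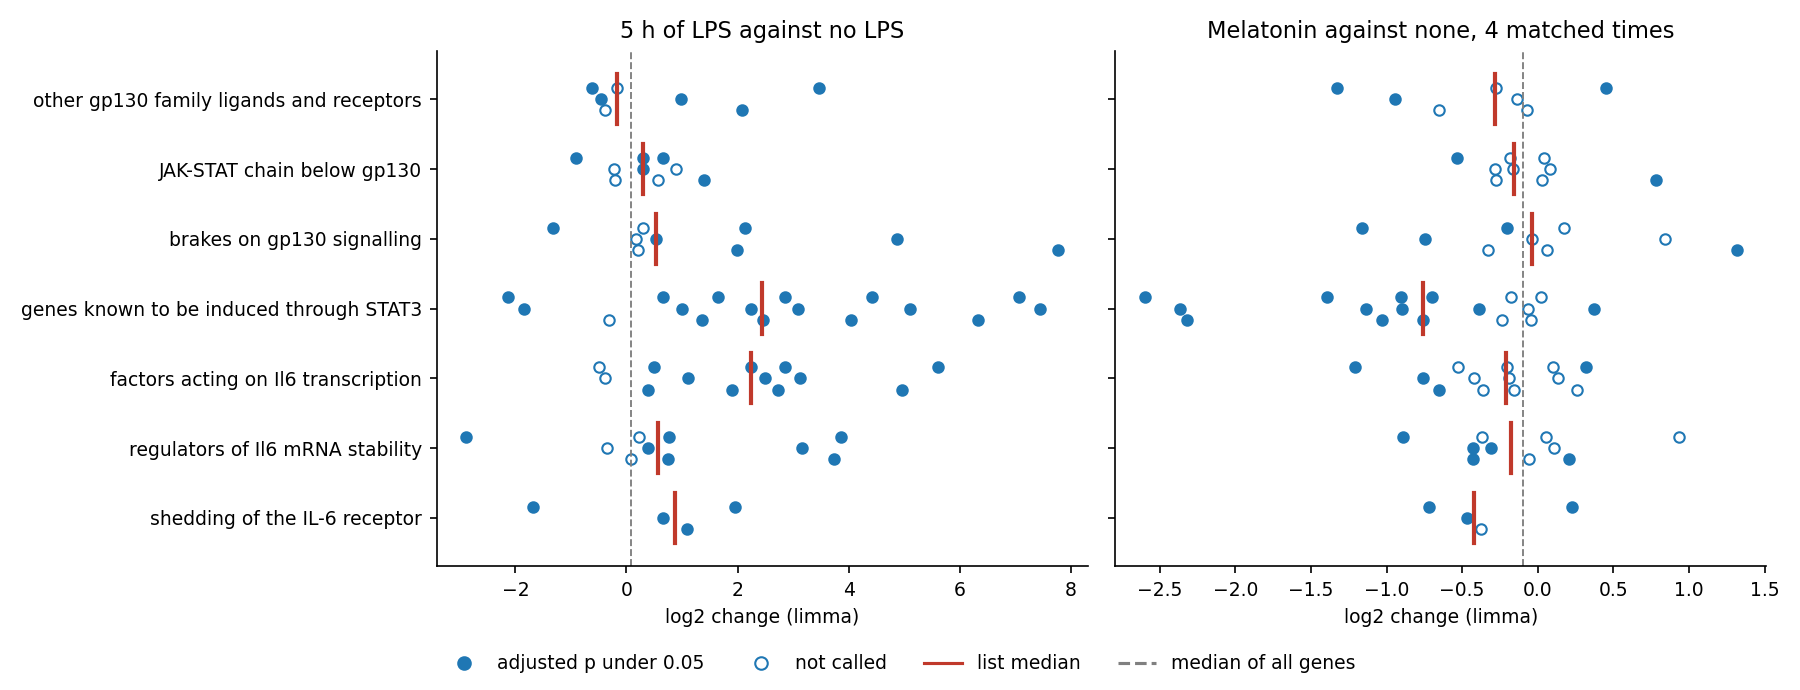
Fitted log2 change (x axis) of each tested gene in 7 lists around the IL-6 family, at 5 h of LPS (left) and for melatonin over the 4 matched times (right). Filled points were called by limma, red bars are list medians and the dashed line is the median of all genes. The lists were chosen with earlier results of these data known. The STAT3-induced list has its median at 2.45 on the left and at -0.76 on the right, where the medians of all genes are 0.08 and -0.10.

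The genes whose levels followed each member most closely over the 8 arrays were named as a description, with no test. They were chosen from 20076 genes, over arrays that share LPS times and arms. For Il6 they were Il1a, the interleukin-1 alpha gene (r = 0.998), Myom3 (0.998) and the uridine phosphorylase gene Upp1 (0.997). Il1a read -7.02, -2.62, 3.58 and 4.65 at 0, 1, 3 and 5 h in the arm lacking melatonin and -6.64, -5.64, 0.30 and 2.57 with it. Its -7.02, -6.64 and -5.64 lay under the lowest signal well above background on those arrays (-4.72, -4.35 and -4.37). Because Il1a was picked for following Il6, its lower levels with melatonin come with that choice and are no separate result. Lif was followed by Mob4 (r = 0.996), the urokinase receptor gene Plaur (0.993) and 9530036O11Rik (0.991). Nearest to Osm were the GTPase gene Rheb (r = 0.992), a transcript that the array names by position only (0.99) and Lsm1 (0.988). On both arrays without LPS, Myom3, Upp1, 9530036O11Rik and that transcript also lay under the lowest signal well above background, so their r takes in dim levels. Il6ra went with Susd3 (r = 0.996), Tmem59 (0.995) and Cbx6 (0.994), and Il6st with Slc9a3r1 (0.974), Mpzl1 (0.974) and the cholesterol transporter gene Npc1 (0.973). Il6ra ran opposite to Il6 (r = -0.976), and Il6st less closely so (r = -0.655).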

How the data were processed

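Transcripts were measured on 8 Agilent 1-colour arrays, 1 per condition. Per the file headers, the deposited intensity values come from Agilent Feature Extraction 12.0.3.1 as processed signals: background subtracted, detrended, and replaced by surrogates near background; other deposited columns used are 0 or 1 flags for spots well above background, saturated or outlying. The authors' deposited log2 table, which served as an alternative, had the same median on every array (5.306), and the method behind it is not stated in the sources used here. Mean and local background intensity, deposited as scanned, served the normexp alternative.

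Processed signals were divided by the array's 75th percentile over spots that are not controls, log2 transformed and averaged per probe, without outlier spots. No spot was saturated. Symbols were updated through RefSeq accessions for 1535 of 56605 probes. Of 30417 probes well above background on at least 2 arrays, that of the highest mean represented its gene (20076 genes). Limma 3.58.1 in R 4.3.3 fitted LPS time and melatonin additively (3 residual degrees of freedom, empirical Bayes with intensity trend), so any melatonin effect that changes with time enters the error. A fit with a melatonin by LPS term kept 2. Tests were 2-sided and adjusted by Benjamini-Hochberg over all genes. The procedure was also run on simulated data with changes at 3 h of LPS, but with no melatonin effect and no detection limit. The number of arrays limits the precision.

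Members and lists were chosen with earlier results of these data known. Named were all members, from each list up to 3 of the largest called rises and falls at 5 h and up to 3 melatonin calls of smallest p, and the 3 genes nearest each member in Pearson r; 1 gene that this rule names is not reported here. Other genes' per-array values, for Il27, Socs3, Nfkbiz and Il1rn, were chosen to be shown after their values were seen, and promoter motifs were chosen after seeing the data. Alternatives were quantile scaling, normexp, the deposited table, detection filters, a common floor, no intensity trend, other uses of a gene's probes and leaving out each array. A 75th percentile over averaged probes was added after seeing the data, and Socs2 was named for its detection.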

Additional observations from a re-analysis of the deposited data

How the results depend on the processing

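Of the members' tested changes under alternatives, 554 kept direction and call, 27 lost the call, 16 gained it and 9 changed sign; where no cause is evident from the alternative's construction, the cause was not tested. Il6st at 1 h was -0.09 with the mean of its probes. The Lif melatonin by LPS term was -0.45 with normexp and -0.76 with a common floor. Leaving out arrays moved Il6st between -0.23 and 0.34 at 1 h, between -0.54 and 0.03 at 5 h and between -0.22 and 0.51 from 3 to 5 h, Il6ra at 1 h between -1.07 and 0.10, and Osm from 1 to 3 h between -0.14 and 1.26.

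The filter on all 8 arrays drops Il6 and Lif, which left 0 members called at 1 h, 2 at 3 h, 2 at 5 h, 0 from 1 to 3 h and 1 for melatonin. At 1 h, 2 members were called with quantile scaling, the deposited table or every probe on its own, and 0 with a common floor. For melatonin, 1 was called with no filter or no trend and 0 with a common floor. Without 1 array, between 1 and 3 members were called at 1 h, 3 and 5 at 3 h, 1 and 3 from 1 to 3 h, 0 and 5 for melatonin, and 0 and 1 for the melatonin by LPS term, which could not be fitted without a 0 h array. With normexp, which added an offset of 50, single-time differences of -0.26 (Lif, 0 h) and -1.37 (Il6, 1 h) were read. The processed signals gave -1.13 and -3.51.

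Genes called overall ran from 95 to 738 at 1 h (393 in the report), 2489 to 10052 at 3 h (6766), 4478 to 13079 at 5 h (8879), 325 to 4435 from 1 to 3 h (3061), 1 to 33 from 3 to 5 h (19), 4130 to 11078 for melatonin (8158) and 0 to 40 for the melatonin by LPS term (0). Each condition has 1 array, so there were no replicates to pair. The melatonin fit pairs the arms by LPS time only. Il6 without LPS and at 1 h with melatonin, and Lif without LPS, were not well above background, which limits their folds to bounds.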
